A study of Mus musculus with 9 samples.

Results

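A set of 10 genes of T cells, natural killer (NK) cells and the interleukin-17 response was followed in RNA from mouse brain microglia, out of 18571 genes in the deposited table. They are the CD3 subunit genes Cd3e, Cd3g and Cd3d, the coreceptor gene Cd8a, the cytotoxic granule genes Nkg7, Gzma and Gzmb, the chemokine gene Ccl5, and the cytokine genes Il17a and Il17f. They were taken from the table by symbol. Il17a and Il17f were picked for their high read counts in the libraries of the knockout group, so their levels there are a description and carry no test, while the other 8 genes were tested throughout and Il17a between the control groups. The cells came from cortex and hippocampus, with the meninges removed, of 9-month-old mice on the C57BL6/j background and were captured on plates coated with an antibody to CD45. The 3 groups were wild type (WT), APP/PS1, a transgenic model that develops amyloid plaques, and APP/PS1:Cx3cr1-CreER:Cx43-flox/flox, in which a tamoxifen-activated recombinase driven by Cx3cr1 is meant to delete connexin 43 (the gene Gja1) in microglia, called cKO in the text and Cx43 cKO in the plots. Each group had 3 libraries. The protocol given for all groups has tamoxifen by gavage at 0.1 mg/g for 5 days at 8 months of age. The labels give the control groups neither Cre nor floxed alleles, and they do not say whether libraries came from separate animals, so p-values measure only the spread between these samples, which may be technical.

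CD45 is carried by all leukocytes, so the capture does not separate microglia from lymphocytes. The CD3 proteins are the signalling subunits that every T cell receptor needs to reach the cell surface, CD8 marks T cells that recognise peptides on MHC class I, and granzymes are proteases that cytotoxic T cells and NK cells release into target cells. Interleukin-17A and interleukin-17F are secreted by type 17 lymphocytes, among them gamma-delta T cells of the brain borders and T helper 17 cells, and they act through a receptor of the subunits IL-17RA and IL-17RC.

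Il17a and Il17f are neighbours on mouse chromosome 1. In the RefSeq annotation of GRCm38.p6, Il17a lies on the plus strand at chr1:20730905-20734496 and Il17f on the minus strand at chr1:20777146-20785274. The 250 bases before the start that the RefSeq promoter table gives for each gene are shown because these genes carry the largest differences of the set and because many nuclear receptors are known to bind sites with the core letters AGGTCA. Both are written 5′ to 3′ on the strand of the gene, and capitals mark AGGTCA or its reverse complement TGACCT and the TATA box letters TATAAA. The windows are chr1:20730655-20730904 for Il17a and chr1:20784271-20784520 for Il17f, whose start in that table lies inside the span of the gene, so that its window does too.
Il17a: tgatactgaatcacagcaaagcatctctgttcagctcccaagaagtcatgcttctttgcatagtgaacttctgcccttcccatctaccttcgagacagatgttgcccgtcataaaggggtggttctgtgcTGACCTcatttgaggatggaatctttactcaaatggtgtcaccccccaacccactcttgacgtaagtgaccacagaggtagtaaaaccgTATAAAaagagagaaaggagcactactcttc
Il17f: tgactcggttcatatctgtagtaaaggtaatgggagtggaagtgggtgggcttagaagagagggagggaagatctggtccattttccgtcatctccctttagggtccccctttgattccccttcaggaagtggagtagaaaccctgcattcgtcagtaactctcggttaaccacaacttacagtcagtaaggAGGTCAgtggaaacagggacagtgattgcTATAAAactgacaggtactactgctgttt
Both motifs occur once in each window, AGGTCA on the opposite strand in Il17a and on the gene's strand in Il17f, and they do not overlap. Promoters of 9 of the 10 genes were found in the table, and both motifs were held by 2 of these 9, Il17a and Il17f. Searched on both strands, AGGTCA was in 14% and TATAAA in 12.4% of the 32851 promoter windows of this length, so a match is a description of the letters and not of a bound site.

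Total estimated counts ran from 18907681 to 19565354 per library, and the biological coefficient of variation within groups was 3.14%. Levels are given as CPM, counts scaled to library size with TMM factors, and, where genes are compared with each other, as TPM, which also takes transcript length into account. Gja1, the targeted gene, had 642 to 716 counts in the WT libraries, 688 to 788 in APP/PS1 and 484 to 539 in cKO. Ddx3y, a gene of the Y chromosome, had 4137 to 4538 counts in the libraries of both control groups and 0, 1 and 2 in cKO, so the sex of the mice and the knockout cannot be told apart in any comparison with cKO.

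Il17a was abundant in the cKO libraries and near the lower limit of measurement in both control groups. Its estimated counts were 22, 25 and 15 in the WT libraries, 12, 12 and 13 in APP/PS1, and 600, 597 and 592 in cKO. The cKO libraries stood far above all 6 others and differed little among themselves. The mean level was 1.02 ± 0.257 CPM for WT (SD, n = 3), 0.667 ± 0.0292 for APP/PS1 and 31.3 ± 0.473 in cKO. Summed over libraries, the ratio of cKO to APP/PS1 was 46.9 and the ratio of cKO to WT was 30.7, as a description. In TPM, Il17a stood at rank 12143 of 18571 genes in WT, at rank 12717 in APP/PS1 and at rank 2617 in cKO, where its mean of 57.3 TPM was above those of Cd3e, Cd3g and Cd3d. Il17a TPM per summed TPM of the 3 CD3 genes was 0.0893 ± 0.0254 in WT, 0.0263 ± 0.00114 in APP/PS1 and 1.69 ± 0.0561 in cKO (SD, n = 3). In bulk samples like these, more cells of a type and more RNA per cell cannot be told apart.

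Il17f was also highest in cKO, at far lower counts. It had 4, 3 and 2 counts in the WT libraries, 3, 5 and 2 in APP/PS1, and 20, 29 and 17 in cKO. The cKO libraries were all above the others, and WT and APP/PS1 overlapped. It passed the filter on low counts only through cKO, so it carries no test in any comparison. In cKO there were 28.5 ± 7.24 Il17a counts per Il17f count, against 7.09 ± 1.45 in WT and 4.3 ± 2.07 in APP/PS1 (SD, n = 3), where the counts of Il17f were 5 or fewer.

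**Figure D1:**
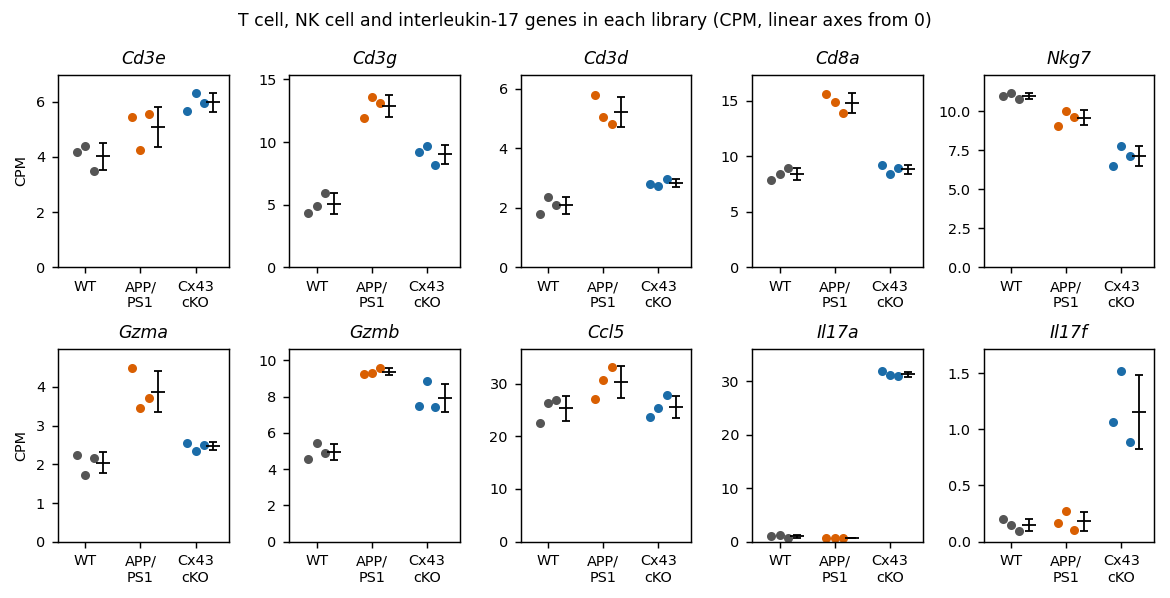
Level in CPM of each of the 10 genes, 1 panel per gene on a linear axis from 0, by group. Dots are the 3 libraries of a group in the order of their numbers, and the bar with caps is the mean with its SD; Il17a is at 30.9 to 31.8 CPM in cKO and at or below 1.23 CPM elsewhere, while Cd3g, Cd3d and Cd8a are highest in APP/PS1.

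Between APP/PS1 and WT, the comparison that the selection of Il17a did not use, this gene was not called. Its log2 change was -0.61 ± 0.26 (SE, edgeR adjusted p = 0.0627), with the libraries of the groups apart. The call depended on the scaling, and with offsets for transcript length and GC content the log2 change was -1.29 with an adjusted p of 9.49e-05. Without WT library 3 it was -0.80 with an adjusted p of 0.0222.

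The sums of neutrophil, of monocyte and of mast cell and basophil markers had the same order of groups as Il17a. The B cell, platelet and erythroid sums had other orders. The summed level of 11 neutrophil markers ran from 2960 to 2980 CPM for WT, from 909 to 925 in APP/PS1 and from 8580 to 8730 in cKO, and 11 of 11 were called higher in cKO than in APP/PS1, where 55% of all 14696 genes tested were called, 27.3% higher and 27.7% lower. For 5 monocyte markers the ranges were 481 to 489 CPM, 166 to 182 and 720 to 738, with 5 of 5 called higher in cKO than in APP/PS1. Single markers did not all share the order, since in cKO against WT 9 neutrophil markers were called higher and 2 lower (Elane and Mpo), and 4 monocyte markers higher and 1 lower (F13a1), beside 47.7% of all genes called. The 6 mast cell and basophil markers summed to 17.9 to 20.9 CPM for WT, 11.7 to 12.5 in APP/PS1 and 21.4 to 22.8 in cKO, with 4 of 6 called higher and 1 lower in cKO against APP/PS1. Mcpt8, a basophil protease, changed by -2.72 ± 0.25 in APP/PS1 against WT (SE, edgeR adjusted p = 4.7e-10) and by 3.99 ± 0.21 in cKO against APP/PS1 (adjusted p = 9.16e-15). Of 4 tested markers of type 2 innate lymphoid cells, 2 were called higher in the latter comparison, a share of 50% that is below the 55% of all genes, namely Areg (1.73 ± 0.15, adjusted p = 1.28e-10) and Il13 (1.45 ± 0.50, adjusted p = 0.0161). The 6 B cell markers had a mean sum of 31.8 CPM for WT, 11.1 in APP/PS1 and 20.2 in cKO. For 5 platelet markers these means were 55.2, 51.5 and 24.5 CPM, and for 6 erythroid markers 321.6, 58.3 and 30.1 CPM. No defining marker of neutrophils was at 0, and Ly6g had 60 to 64 counts in the APP/PS1 libraries. The 7 microglia markers summed to 16000 to 16400 CPM for WT, 19200 to 19500 in APP/PS1 and 17600 to 17800 in cKO, the order of groups that the summed CD3 genes have. Single microglia markers did not all share it. In APP/PS1 against WT 4 were called higher and 3 lower, beside 59% of all genes called. In cKO against APP/PS1 2 were called higher and 3 lower, beside 55%. The part of any of these cells in the levels of Il17a and of the CD3 genes was not tested.

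**Figure D2:**
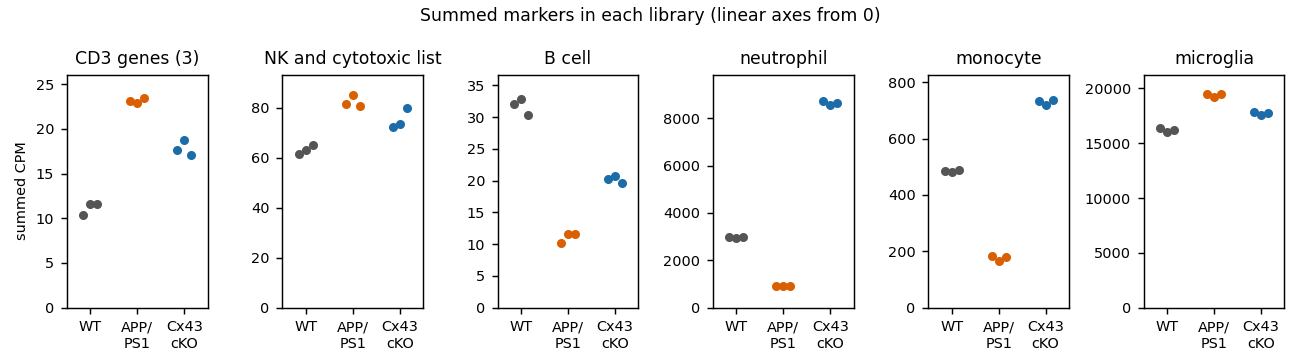
Summed level in CPM of lists of marker genes by group, 1 panel per list on a linear axis from 0, with dots for the 3 libraries of each group. The neutrophil and monocyte sums are lowest in APP/PS1 and highest in cKO, and the sum of the 3 CD3 genes is highest in APP/PS1 at 22.9 to 23.5 CPM.

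Genes of gamma-delta and type 17 lymphocytes, taken from a list that did not hold Il17a and Il17f, included several with the order of groups seen for Il17a. Of 19 listed genes, 13 were tested. The 15 listed genes with counts summed to 450.7 CPM for WT, 472.6 in APP/PS1 and 535.6 in cKO, not the order of Il17a. The 3 CD3 genes summed to 11.2, 23.2 and 17.8 CPM, and the part of lymphocytes in the list was not tested. In cKO against APP/PS1, 9 were called higher, 1 lower (Maf, -0.11 ± 0.03) and 3 not. The median log2 change was 0.38, beside -0.01 for all genes tested. The share called was 76.9%, beside 55% of all genes. In APP/PS1 against WT, 2 were called higher, 6 lower and 5 not, with a median of -0.12 beside -0.04. This is 61.5%, near the 59% of all genes (26.9% higher and 32% lower). In cKO against WT, 9 were called higher and 2 lower (84.6%, beside 47.7% of all genes), with a median of 0.38. The 2 lower were Sox13 (-0.35 ± 0.09) and Ahr (-0.30 ± 0.09).

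Cd163l1, which codes for the scavenger receptor SCART1 known from interleukin-17-producing gamma-delta T cells, had 56, 54 and 63 counts in the WT libraries, 10, 11 and 7 in APP/PS1, and 365, 359 and 396 in cKO. The 3 groups did not overlap, and the log2 changes were -2.48 ± 0.22 in APP/PS1 against WT (SE, edgeR adjusted p = 1.56e-10) and 5.26 ± 0.15 in cKO against APP/PS1 (adjusted p = 4.25e-21). Blk, a kinase of B cells and of gamma-delta T cells, changed by -1.97 ± 0.25 and 3.12 ± 0.22 (adjusted p = 1.91e-07 and 3.84e-12). Il18r1, an interleukin-18 receptor chain found on several innate-like lymphocytes, changed by -1.21 ± 0.13 and 1.94 ± 0.12 (adjusted p = 9.87e-09 and 2.04e-13). These 3 genes kept their direction and their call in both comparisons under every alternative that could be fitted to them.

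The gene of PLZF, Zbtb16, a factor of innate-like T cells, was higher in cKO than in APP/PS1 by 0.82 ± 0.09 on the log2 scale (adjusted p = 1.92e-08) and did not pass the test between APP/PS1 and WT (0.14 ± 0.10, adjusted p = 0.23). The chemokine receptor gene Ccr6 passed the test in none of the 3 comparisons, with log2 changes from -0.22 to 0.12. Il23r, the receptor gene for interleukin-23, had 2 to 9 counts in any library and Il22 had 0 to 2, and neither was tested. This pair was named after its values were seen. The constant-region genes of the T cell receptor chains were not analysed here.

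The receptor and the inducers of interleukin-17 were measured in the same libraries. Il17ra, the receptor chain shared by several interleukin-17 cytokines, was at 399.3 ± 1.71 CPM for WT (SD, n = 3), 249.6 ± 5.84 in APP/PS1 and 321.6 ± 4.22 in cKO. It was lower in APP/PS1 than in WT by a log2 change of -0.68 ± 0.03 (SE, edgeR adjusted p = 4.75e-17) and higher in cKO than in APP/PS1 by 0.37 ± 0.03 (adjusted p = 3.29e-11). Il17rc, its partner chain, was at 1.28 to 2.01 CPM in the group means and was not called between cKO and APP/PS1 (0.43 ± 0.22, adjusted p = 0.103). Il23a, which codes for the p19 subunit of interleukin-23, a cytokine that sustains type 17 cells, had 16, 23 and 19 counts in the WT libraries, 112, 111 and 143 in APP/PS1, and 112, 101 and 105 in cKO. It was thus high in both APP/PS1 groups, with a log2 change of 2.78 ± 0.17 against WT in APP/PS1 (adjusted p = 1.5e-13) and no call between cKO and APP/PS1 (-0.25 ± 0.13, adjusted p = 0.1). Il1b, another inducer, increased in APP/PS1 against WT by 1.11 ± 0.03 (adjusted p = 1.02e-22) and was lower in cKO than in APP/PS1 by -0.57 ± 0.03 (adjusted p = 1.75e-16). Over the whole list of interleukin-17 family members, receptors and inducers, 12 of 17 genes were tested, and 6 were called higher and 3 lower in each of these comparisons. That is 75% in each, beside 59% of all genes in APP/PS1 against WT and 55% in cKO against APP/PS1.

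Among 18 tested genes listed as responsive to interleukin-17 in tissue cells, 7 were called higher, 2 lower and 9 not in cKO against APP/PS1, with a median log2 change of 0.19 beside -0.01 for all genes tested. The share called was 50%, below the 55% of all genes. The members that rose most were Mmp9 (4.25 ± 0.05, edgeR adjusted p = 3.16e-30), Lcn2 (4.02 ± 0.05, adjusted p = 1.27e-22), Saa3 (3.10 ± 0.12, adjusted p = 3.95e-18) and Steap4 (2.85 ± 0.09, adjusted p = 1.72e-19). Lcn2 and Mmp9 are also stored in neutrophil granules, and the neutrophil sum moved with them as given above; the part of neutrophils in these changes was not tested. The chemokine genes Cxcl1 and Cxcl2 did not pass the test in this comparison (0.17 ± 0.10 and 0.00 ± 0.03, adjusted p = 0.172 and 0.921), and Ccl7 fell by 1.26 on the log2 scale (adjusted p = 5.22e-19). In APP/PS1 against WT, 4 genes of the list were called higher and 8 lower (66.7%, beside 59% of all genes), with a median of -0.47.

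The CD3 genes lie together on chromosome 9, Cd3g on the minus strand at chr9:44969572-44980431, Cd3d on the plus strand at chr9:44981769-44987052 and Cd3e on the minus strand at chr9:44998735-45009663. Summed over the 3 genes, the level was 11.2 ± 0.727 CPM for WT (SD, n = 3), 23.2 ± 0.285 in APP/PS1 and 17.8 ± 0.825 in cKO. The summed ranges did not overlap, but the subunits did not share 1 pattern.

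Cd3g, the gamma subunit, had 87, 99 and 122 counts in the WT libraries, 218, 253 and 244 in APP/PS1, and 174, 185 and 157 in cKO. The 3 groups were apart, with APP/PS1 highest and WT lowest. Cd3g rose in APP/PS1 against WT by 1.35 ± 0.11 on the log2 scale (SE, edgeR adjusted p = 2.97e-11), and in cKO it was lower than in APP/PS1 (-0.51 ± 0.10, adjusted p = 7e-05) and higher than in WT (0.83 ± 0.11, adjusted p = 8.58e-07).

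Cd3d, the delta subunit, had 36, 48 and 43 counts in the WT libraries, 106, 94 and 89 in APP/PS1, and 53, 52 and 57 in cKO. It had the same order, and cKO lay closer to WT. The log2 changes were 1.32 ± 0.15 in APP/PS1 against WT (edgeR adjusted p = 2.35e-08) and -0.88 ± 0.14 in cKO against APP/PS1 (adjusted p = 9.03e-06). The difference of 0.44 ± 0.16 between cKO and WT (adjusted p = 0.0306) was no longer called without WT library 1 (0.34, adjusted p = 0.133), WT library 3 (0.44, adjusted p = 0.0598), cKO library 1 (0.44, adjusted p = 0.0581) or cKO library 3 (0.40, adjusted p = 0.0903).

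Cd3e, the epsilon subunit, had 84, 89 and 71 counts in the WT libraries, 100, 79 and 103 in APP/PS1, and 107, 121 and 114 in cKO. Unlike the other subunits it was highest in cKO, and WT and APP/PS1 overlapped. Against WT it was higher in cKO by a log2 change of 0.57 ± 0.13 (edgeR adjusted p = 0.00061), and between cKO and APP/PS1 it was not called (0.23 ± 0.13, adjusted p = 0.121). Set against WT, APP/PS1 was called higher at 0.34 ± 0.13 (adjusted p = 0.0313), but its sign turned with TPM values (-0.052, adjusted p = 0.656). That call was also lost without WT library 3 (0.25, adjusted p = 0.155), APP/PS1 library 1 (0.28, adjusted p = 0.117) or APP/PS1 library 3 (0.27, adjusted p = 0.135). In TPM, there were 1.87 ± 0.548 units of Cd3g per unit of Cd3e in WT, 3.78 ± 0.797 in APP/PS1 and 2.21 ± 0.18 in cKO (SD, n = 3), and 0.795 ± 0.122, 1.63 ± 0.302 and 0.724 ± 0.0925 units of Cd3d.

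Cd8a, on chromosome 6 at chr6:71373427-71379171, codes for the CD8 alpha chain, which is also found on some dendritic cells. It had 157, 171 and 183 counts in the WT libraries, 286, 276 and 257 in APP/PS1, and 173, 160 and 171 in cKO. The APP/PS1 libraries stood above all others, and cKO and WT overlapped. Cd8a rose in APP/PS1 against WT by 0.81 ± 0.08 on the log2 scale (SE, edgeR adjusted p = 4.69e-09), was lower in cKO than in APP/PS1 by -0.74 ± 0.08 (adjusted p = 2.83e-08), and did not pass the test between cKO and WT (0.07 ± 0.09, adjusted p = 0.577). The listed gene of the CD8 beta chain, Cd8b1, which is largely limited to T cells, changed by 1.29 ± 0.13 and -1.01 ± 0.13 in the first 2 comparisons (adjusted p = 2.42e-09 and 1.47e-07). Cd4, which microglia and other myeloid cells can also express, was lower in APP/PS1 than in WT (-0.45 ± 0.10, adjusted p = 0.000573) and higher in cKO than in APP/PS1 (0.56 ± 0.10, adjusted p = 5.29e-05). The calls of Cd3g, Cd3d and Cd8a in the first 2 comparisons held under all 23 alternatives.

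Both granzyme genes had their highest level in APP/PS1. Gzma (chr13:113093824-113100981), a trypsin-like granzyme, had 45, 35 and 44 counts in the WT libraries, 82, 64 and 69 in APP/PS1, and 48, 45 and 48 in cKO. APP/PS1 was apart from and above the others, with a log2 change of 0.92 ± 0.16 against WT (edgeR adjusted p = 2.62e-05) and of -0.65 ± 0.16 for cKO against APP/PS1 (adjusted p = 0.00121). With offsets for transcript length and GC content both calls were lost, at 0.28 (adjusted p = 0.156) and -0.14 (adjusted p = 0.476). Between cKO and WT, Gzma did not pass the test (0.27 ± 0.18, adjusted p = 0.216), with the groups apart. Gzmb (chr14:56258836-56262334), which cleaves caspases in target cells, had 91, 110 and 100 counts in the WT libraries, 169, 173 and 178 in APP/PS1, and 141, 169 and 143 in cKO. It was above WT in both other groups, by 0.92 ± 0.11 in APP/PS1 (adjusted p = 2.69e-08) and 0.68 ± 0.11 in cKO (adjusted p = 8.45e-06). The difference of -0.24 ± 0.10 in Gzmb between cKO and APP/PS1 (adjusted p = 0.0373) lost its call without any single library of either group, at -0.25 to -0.20 and adjusted p = 0.0577 to 0.135, except cKO library 2.

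Nkg7 (chr7:43437138-43438246), a membrane protein of cytotoxic granules, had its highest level in WT. It had 220, 227 and 220 counts in the WT libraries, 166, 186 and 179 in APP/PS1, and 122, 148 and 137 in cKO. The groups were apart, with WT highest and cKO lowest. It did not pass the test in APP/PS1 against WT (-0.20 ± 0.09, edgeR adjusted p = 0.0528), and it was lower in cKO than in APP/PS1 (-0.43 ± 0.09, adjusted p = 0.000391) and than in WT (-0.63 ± 0.09, adjusted p = 2.21e-06). The first of these was called lower in 10 of 23 alternatives, and with offsets for length and GC content it was -0.69 (adjusted p = 4.08e-08). With the same offsets the difference between cKO and APP/PS1 was -0.044 and no longer called (adjusted p = 0.723).

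Ccl5 (chr11:83525778-83530518), a chemokine of T cells, NK cells and activated macrophages, was the most abundant of the 10 genes per length in every group, at group means of 109 to 123 TPM. It had 451, 536 and 550 counts in the WT libraries, 495, 569 and 615 in APP/PS1, and 447, 484 and 534 in cKO. The ranges in CPM overlapped between cKO and each other group and were narrowly apart between APP/PS1 and WT, and library 1 was the lowest of every group. Its variation within groups was also the greatest of the set, at 4.53 times that of Poisson counts (6 degrees of freedom), against 0.493 to 1.71 for the other 9. The log2 changes were 0.26 ± 0.08 in APP/PS1 against WT (SE, edgeR adjusted p = 0.012) and -0.24 ± 0.08 in cKO against APP/PS1 (adjusted p = 0.0206), but with offsets for length and GC content they turned to -0.23 (adjusted p = 0.0128) and 0.14 (adjusted p = 0.12). The first call was lost without APP/PS1 library 3 (0.19, adjusted p = 0.0647), and the second without APP/PS1 library 2 (-0.24, adjusted p = 0.0642), APP/PS1 library 3 (-0.17, adjusted p = 0.0958), cKO library 1 (-0.19, adjusted p = 0.0844) or cKO library 2 (-0.23, adjusted p = 0.0701).

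**Figure D3:**
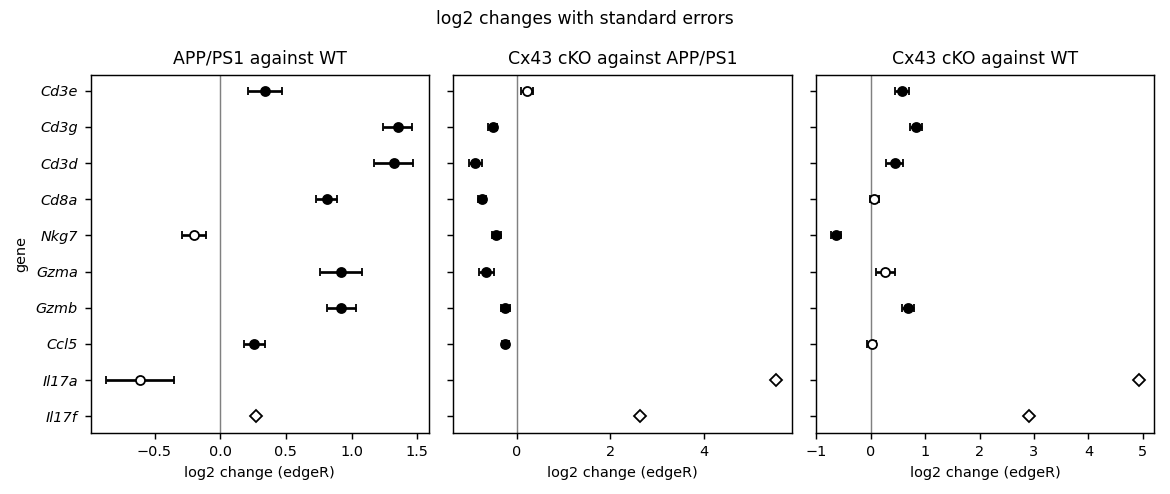
The log2 change of each of the 10 genes in the 3 comparisons, with its standard error as a bar; filled dots were called at an adjusted p under 0.05, open dots were not, and open diamonds, shown without a test, are Il17f in all 3 and Il17a in those with cKO. Cd3g, Cd3d, Cd8a, Gzma and Gzmb are right of 0 in APP/PS1 against WT and left of 0 in cKO against APP/PS1, and the dots of Cd3e and Ccl5 in the first panel change sign with TPM values.

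Over the set, 7 of the 10 genes were called in APP/PS1 against WT (70%), 7 higher and 0 lower; of all 14696 genes tested, 59% were called in that comparison, 26.9% higher and 32% lower. Without Il17f these are 7 of 9 (77.8%). The median log2 change over these 9 was 0.81, beside -0.04 for all genes tested. With offsets for length and GC content, 4 were called higher (Cd3g, Cd3d, Cd8a and Gzmb) and 3 lower (Nkg7, Ccl5 and Il17a), and Cd3e (0.24, edgeR adjusted p = 0.133) and Gzma lost their calls. In cKO against APP/PS1, 7 of the 8 genes tested were called (87.5%), each of them lower, where 55% of all genes were called, 27.3% higher and 27.7% lower, and the median was -0.47 beside -0.01. With the same offsets, 3 were called lower (Cd3g, Cd3d and Cd8a) and 1 higher, Cd3e at 0.31 (edgeR adjusted p = 0.0418). In cKO against WT, 5 of 8 were called (62.5%), 4 higher and 1 lower, where 47.7% of all genes were called, 24.7% higher and 23% lower, and the median was 0.35 beside -0.01. Groups were free of overlap for 8 of these 9 in APP/PS1 against WT (6 higher, 2 lower), against 63.5% of all genes (28.9% higher, 34.6% lower). In cKO against APP/PS1 this held for 7 of 8 (1 higher, 6 lower), against 59.7% (29.4% and 30.3%), and in cKO against WT for 6 of 8 (5 higher, 1 lower), against 54.6% (27.9% and 26.7%). All 10 genes passed the filter on low counts, Il17f through its counts in cKO, and the comparisons share groups and are not independent.

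Transcript length moved with these comparisons, and several of the genes are short. Over the genes in the shortest of 10 length classes (median 1095 nt), the median log2 change was 0.46 in APP/PS1 against WT and -0.42 in cKO against APP/PS1, against -0.09 and 0.02 in the longest class. The longest transcripts of Ccl5 (668 nt), Nkg7 (881 nt) and Gzma (996 nt) lie at percentiles 0.861, 2.6 and 3.87 of the genes tested, and Cd3g (2539 nt), Cd3e (2550 nt) and Cd8a (3128 nt) are longer. With offsets for length and GC content, Gzmb was not called in cKO against APP/PS1 (-0.078, edgeR adjusted p = 0.527).

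Other genes of cytotoxic lymphocytes were tested from a list. Of 20 tested genes listed for NK and cytotoxic cells, 12 were called higher, 2 lower and 6 not in APP/PS1 against WT (median log2 change 0.53), and 2 were called higher, 12 lower and 6 not in cKO against APP/PS1 (median -0.57). The share called was 70% in both, beside 59% and 55% of all genes. Klrb1c, which codes for the NK receptor NK1.1, had 23, 22 and 18 counts in the WT libraries, 112, 134 and 134 in APP/PS1, and 33, 41 and 38 in cKO. Its groups were apart, with log2 changes of 2.72 ± 0.16 and -1.80 ± 0.15 (SE, edgeR adjusted p = 1.01e-13 and 6.33e-11). Klrd1, the CD94 chain of NK receptors, changed by 1.44 ± 0.15 and -1.69 ± 0.16, and Gzmk, a granzyme of memory CD8 T cells, by 1.62 ± 0.20 and -1.59 ± 0.21. Ifng, the gene of interferon gamma, changed by 1.64 ± 0.19 (adjusted p = 3.98e-08) and -0.51 ± 0.17 (adjusted p = 0.012), and the second change moved to the other side of 0 with the length and GC offsets. Il2rb, a receptor chain for interleukin-2 and interleukin-15, went the other way, at -0.64 ± 0.08 and 1.19 ± 0.08 (adjusted p = 2.53e-07 and 9.37e-13). So did Txk, at -1.56 ± 0.33 and 1.04 ± 0.36 (adjusted p = 0.000229 and 0.0164). Prf1, the perforin gene, was called in neither comparison (-0.39 ± 0.22 and 0.01 ± 0.23) nor in cKO against WT (-0.37 ± 0.22). Ncr1, a defining receptor of NK cells named here after its values were seen, had 2 to 10 counts in any library and was not tested.

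T cell receptor signalling genes moved in both directions. Of 23 tested, 8 were called higher and 9 lower in APP/PS1 against WT (median log2 change 0.01), and 9 higher and 8 lower in cKO against APP/PS1 (median 0.02). In both, 73.9% were called, beside 59% and 55% of all genes. The 24 listed genes with counts summed to 509.1 CPM for WT, 447.9 in APP/PS1 and 467.2 in cKO. The part of T cells in these sums was not tested. Cd247, the zeta chain of the same receptor complex, was lower in APP/PS1 than in WT (-0.71 ± 0.21, edgeR adjusted p = 0.00862) and higher in cKO than in APP/PS1 (1.04 ± 0.20, adjusted p = 0.00047), against the direction of Cd3g and Cd3d. Lat, the adaptor downstream of the receptor, changed in the same way as Cd247 (-0.37 ± 0.12 and 0.78 ± 0.12, adjusted p = 0.0125 and 3.11e-06). Ms4a4b, a membrane protein of T cells, changed as Cd3d did (0.95 ± 0.10 and -0.97 ± 0.10, adjusted p = 8.7e-09 and 9.46e-09).

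Of 8 tested genes for regulatory T cells and checkpoints, 4 were called higher and 3 lower in cKO against APP/PS1, and 6 higher and 1 lower in cKO against WT. Each is a share of 87.5%, beside 55% and 47.7% of all genes. Ctla4, an inhibitory receptor of activated and regulatory T cells, had 166, 193 and 199 counts in the WT libraries, 164, 143 and 143 in APP/PS1, and 445, 420 and 479 in cKO, and was higher in cKO than in APP/PS1 by 1.53 ± 0.08 (edgeR adjusted p = 1.21e-14). Icos, a costimulatory receptor of T cells, was higher by 1.34 ± 0.08 (adjusted p = 1.61e-13). Pdcd1, the gene of PD-1, was already higher in APP/PS1 than in WT, by 2.42 ± 0.09 (adjusted p = 1.17e-18). Foxp3, the defining factor of regulatory T cells, had 4 to 11 counts in any library and was not tested. The 9 listed genes summed to 456 CPM for WT, 578.4 in APP/PS1 and 573 in cKO. The 3 CD3 genes summed to 11.2, 23.2 and 17.8 CPM, and the part of T cells in the list was not tested. Over the 4 lymphocyte lists together, which exclude the 10 genes, 44 of 64 tested genes were called in APP/PS1 against WT, 26 higher and 18 lower, and 48 were called in cKO against APP/PS1, 24 in each direction. These are 68.8% and 75%, beside 59% and 55% of all genes.

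**Figure D4:**
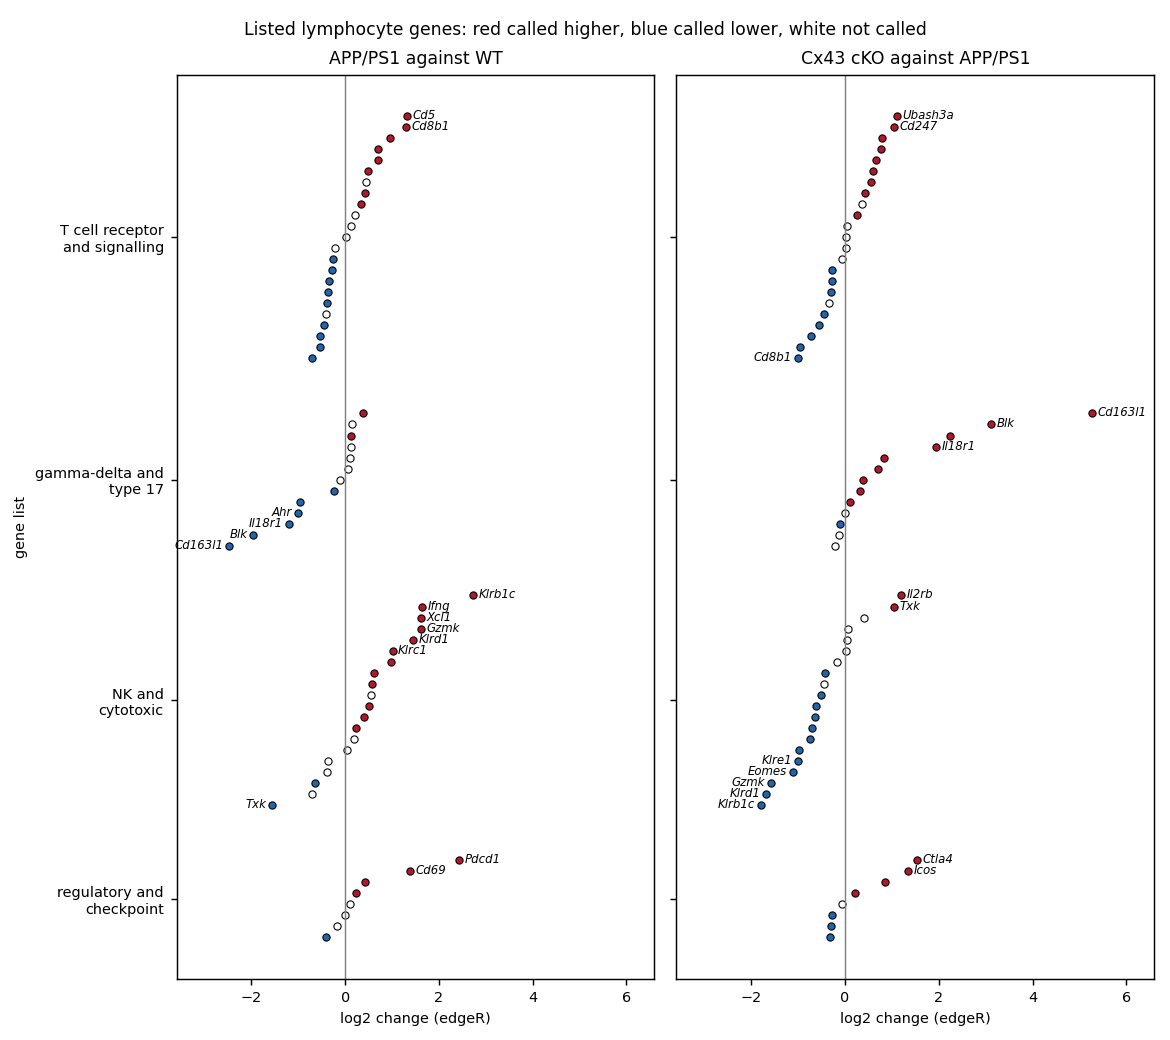
The log2 change of each tested gene of the 4 lymphocyte lists, grouped by list on the vertical axis and sorted within it, in APP/PS1 against WT and in cKO against APP/PS1; most genes called with a change of at least 2-fold are named. Most called genes of the NK and cytotoxic list lie right of 0 in the first panel and left of 0 in the second, and Cd163l1, Blk and Il18r1 lie on the opposite sides.

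Of 10 tested genes for the chemotaxis of T cells, 3 were called higher, 3 lower and 4 not in cKO against APP/PS1, with a median log2 change of 0.05. The share of 60% called is near the 55% of all genes. In APP/PS1 against WT, 3 were called higher and 4 lower (70%, beside 59% of all genes). Ccr1, a receptor of CCL5 that neutrophils and monocytes also carry, was higher in cKO than in APP/PS1 by 1.21 ± 0.05 (SE, edgeR adjusted p = 6.62e-18). Cxcl9, an interferon-induced ligand that attracts T cells, changed by 1.21 ± 0.16 in APP/PS1 against WT (adjusted p = 3.01e-07). In cKO against APP/PS1 it changed by -0.45 ± 0.15 (adjusted p = 0.0113). Its receptor gene Cxcr3 did not pass the test in any comparison (0.05 to 0.11). Cxcr6, a receptor of tissue-resident T cells, was higher in cKO than in APP/PS1 by 0.94 ± 0.08 (adjusted p = 1.5e-10).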

How the data were processed

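The deposited table gives, per the file headers, 4 values for each gene and library, namely estimated (expected) counts, FPKM, TPM and normalised counts. The submitters' processing notes name HISAT, Bowtie2, DESeq2 and GRCm38.p6, and the counting program is not given in the sources used here. The deposited estimated counts carry decimals, the deposited FPKM and TPM values are per length, and the deposited normalised counts are a signal scaled by library, not used here. The 10 genes and all lists were chosen with earlier results of these data known.

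Estimated counts were rounded and tested with the edgeR 4.0.16 quasi-likelihood test (R 4.3.3), TMM scaling, filterByExpr and all 9 libraries in a single fit, and p-values were adjusted by Benjamini-Hochberg over 14696 genes. A gene was called at an adjusted p under 0.05. The labels name no factor that pairs libraries, so the main fit had no term for replicate number. Same-numbered libraries of different groups still resembled each other, as given below. The genes named are the 10, up to 12 per list by mean CPM, and list genes called with at least a 2-fold change; some of these are not reported here. Alternatives were DESeq2 1.42.0 scaling and test, library totals, limma 3.58.1 (voom, and trend on FPKM), other filters and thresholds, a replicate block and leaving out each library. TPM values and offsets for transcript length and GC content (GENCODE M21, 17905 genes with a length) were added after seeing the data. Only the edgeR test was tried on simulated counts, which had a greater spread within groups than these data and no shift by length or replicate. The alternatives and offsets were not tried on them. Promoters came from RefSeq tables of GRCm38.p6; 9 of 10 genes matched.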

Additional observations from a re-analysis of the deposited data

How the results depend on the processing

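Of 23 alternatives, 12 called Cd3e and 15 called Ccl5 higher in APP/PS1 against WT, and none reversed the direction of Cd3g, Cd3d, Cd8a, Gzma or Gzmb in APP/PS1 against WT or cKO against APP/PS1. With TPM values, Cd3e (-0.052) and Ccl5 (-0.13) in APP/PS1 against WT turned negative. With offsets for length and GC content, Ccl5 turned to -0.23 in that comparison and to 0.14 in cKO against APP/PS1. In the former 4 genes were called higher and 3 lower in place of 7 higher, and in the latter 4 genes were called (3 lower, and Cd3e higher) in place of 7 lower; the cause was not tested. The log2 change of Il17a in cKO ran from 4.18 to 6.09 against APP/PS1 and from 3.86 to 5.09 against WT, and that of Il17f from 0.85 to 3.13 and from 0.84 to 3.17, lowest with FPKM and a pseudocount of 1. Leaving out a library gave 8024 to 8763, 7345 to 8133 and 6291 to 7133 genes called in the 3 comparisons, 5 to 8, 5 to 7 and 4 to 5 of the set. Other scaling moved the share of higher calls in APP/PS1 against WT from 45.7% to 29.5% (library totals) and 14.7% (TPM), with the median of all genes at -0.17 and -0.35, in cKO against APP/PS1 from 49.6% to 75.3% (TPM, median 0.14), and in cKO against WT from 51.9% to 30.4% and 19.8% (medians -0.12 and -0.17).

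In their deviations from group means, same-numbered libraries of different groups correlated at a mean of 0.19 (0.05 to 0.29, 9 pairs). Libraries with different numbers were at -0.10 (-0.25 to 0.05, 18 pairs). Each library's best match in each other group had its number in 18 of 18 cases, a hint from the data and not the design. A replicate block lowered the coefficient of variation from 3.14% to 0.988%. With the replicate block, 9319, 8851 and 7934 genes were called against 8670, 8085 and 7010, and 8, 7 and 5 of the set against 7, 7 and 5, Nkg7 in APP/PS1 against WT being added (adjusted p = 0.0414). With the block and the offsets, Ccl5 was at -0.23 (adjusted p = 9.61e-05) and 0.14 (adjusted p = 0.0137).

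Il17f rests on 2 to 5 counts per library in WT and APP/PS1.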

Other observations

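The genes whose levels were most like those of Il17a and Il17f summed, by Pearson's r of log2 CPM over the 9 libraries, were LOC115489125 (0.999), H60b, Gm42048 and Iqsec1 (0.997 each), Anxa2 (0.996) and Gbp2b (0.995), of 13585 candidates. H60b, which codes for a ligand of the NK receptor NKG2D, was at 0.215 CPM for WT, 0.072 for APP/PS1 and 4.65 in cKO, and Gbp2b, an interferon-inducible GTPase, at 0.0496, 0.0721 and 41. The 3 CD3 genes stood at 0.691 for Cd3e, 0.063 for Cd3g and -0.250 for Cd3d, and Nkg7 at -0.894. These r values mainly carry the 3 group means, are given as a description, and 18 genes exceeded 0.99.

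For the summed CD3 genes the most like were Smim14 (0.995), Ch25h (0.994), Ccl6 (0.993), and Dhrs1, Psmb6 and Eef1a1 (0.992 each). Of the set, Gzmb stood at 0.986, Gzma at 0.847, Cd8a at 0.806 and Nkg7 at -0.429.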
